A study of Mus musculus with 16 samples.

Results

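Of the 55414 genes counted in the series, 9 that belong to the interferon arm of innate immunity were examined in primary mouse chondrocytes exposed to tumor necrosis factor α (TNFα). They were chosen by their symbols, with earlier results of these data known. They are 7 interferon regulatory factors (*Irf1*, *Irf2*, *Irf3*, *Irf5*, *Irf7*, *Irf8* and *Irf9*), the signal transducer *Stat2*, and *Socs1*, which codes for an inhibitor of Janus kinases. All 9 had enough counts to be tested in every comparison.

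The cells were chondrocyte-enriched cultures from the epiphyses of newborn mice on a C57BL/6 background. Heterozygous Notch2tm1.1Ecan mice (Notch2 mutant in the sample labels) carry a premature stop codon in *Notch2*, so that the protein lacks the PEST domain that limits its lifetime and is present in every tissue that expresses *Notch2*. Control littermates are labelled wild type. Confluent cells, pooled from males and females, were exposed for 6 h to vehicle (phosphate-buffered saline) or to TNFα (50 ng/ml), which gave 4 groups of 4 libraries: control with vehicle, Notch2tm1.1Ecan with vehicle, control with TNFα and Notch2tm1.1Ecan with TNFα. The labels mention serum removal for the TNFα groups only, whereas the study describes it for both treatments. They call the 4 libraries of a group biological replicates without saying whether these came from separate litters, so the p-values measure the spread between these preparations.

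Interferon regulatory factors bind DNA motifs built from GAAA repeats. IRF3, IRF5 and IRF7 are held inactive in the cytoplasm and are phosphorylated downstream of sensors of nucleic acids and of Toll-like receptors, after which they induce type I interferons. Secreted interferon acts through receptors coupled to Janus kinases. STAT2 and IRF9 are subunits of the ISGF3 complex that then forms and binds the interferon-stimulated response element (ISRE). IRF1 is an activator that inflammatory cytokines induce through NF-κB, IRF2 competes with it for the same elements, and IRF8 is best known from macrophages, dendritic cells and B cells. SOCS1 closes the loop by inhibiting the kinases. Most of this regulation acts on proteins, and RNA levels alone were measured here.

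Sequences around the annotated starts were examined for short consensus matches to such control elements. Elements further away, or with other letters, were not looked for. RefSeq starts gave 12 windows for the 9 members, each from 250 bases before to 50 bases after the start, in mouse build GRCm38.p6. They were searched on both strands for an ISRE (GAAANNGAAA), for the γ-activated site (GAS, TTCNNNGAA, which reads alike on both strands) and for the NF-κB consensus. An ISRE match was present in 3.44% of all 32851 windows of this kind, a GAS match in 8.3% and an NF-κB match in 4.51%. Matches were found for 5 members, which are shown 5′ to 3′ on the strand of the gene with the matched bases in capitals.
Irf1, GAS, chr11:53769904-53769952, plus strand: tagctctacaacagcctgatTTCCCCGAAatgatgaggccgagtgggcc
Irf1, NF-κB, chr11:53769981-53770013, plus strand: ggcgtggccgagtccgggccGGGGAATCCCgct
Irf2, ISRE then GAS, chr8:46739495-46739549, plus strand: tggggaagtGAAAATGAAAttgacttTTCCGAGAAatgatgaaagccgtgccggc
Irf2, NF-κB, chr8:46739708-46739744, plus strand: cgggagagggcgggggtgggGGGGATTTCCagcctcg
Irf8, 2 GAS matches, chr8:120736167-120736233, plus strand: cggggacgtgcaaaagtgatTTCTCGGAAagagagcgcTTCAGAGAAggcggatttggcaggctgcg
Stat2, ISRE on the other strand, chr10:128270256-128270305, plus strand: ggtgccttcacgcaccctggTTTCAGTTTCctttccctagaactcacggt
Socs1, 2 overlapping ISRE matches, chr16:10785584-10785639, minus strand: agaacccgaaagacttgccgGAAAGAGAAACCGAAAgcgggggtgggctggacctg

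*Irf2* held all 3 kinds of match, *Irf1* held a GAS and an NF-κB match, and the 2 ISRE matches of *Socs1* share 4 bases. The windows of *Irf3*, *Irf5*, *Irf7* and *Irf9* held none of these letters. A match describes the sequence and is not a bound site, since binding was not measured.

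Between 3439726 and 44237300 counts fell on genes in a library, and the shallowest was replicate 4 of Notch2tm1.1Ecan cells with TNFα, where 103 counts stood behind *Irf3* and 5 behind *Irf8*. Levels are given as CPM, a count scaled by the normalized size of its library. The 14 chondrocyte markers summed to between 20400 and 55670 CPM, were all detected, and were highest in control cells with vehicle (51880 to 55670 CPM). The 18 macrophage markers summed to 87.1 to 95.9 CPM in control cells and 167 to 197 CPM in Notch2tm1.1Ecan cells with vehicle, and to 104.5 to 122.5 and 219 to 255 CPM with TNFα, and of these only *Cd163* was at 0 in every library of a group (control with vehicle). Markers of B cells, T cells, dendritic cells and neutrophils stayed at or below 1.46 CPM in sum, with 7 to 10 of the 13 at 0 in every library of a group. The 7 endothelial markers summed to 8.57 to 10.9 CPM in control and 17.8 to 23.4 CPM in Notch2tm1.1Ecan cells with vehicle, and to 10.98 to 13.9 and 19.5 to 27.0 CPM with TNFα. In RNA from whole cultures, fewer cells of a type and less RNA per cell cannot be told apart.

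One control library stood apart. In replicate 4 of control cells with vehicle, *Irf7* reached 36.8 CPM against 3.20 to 4.59 CPM in the other 3 libraries of its group. *Irf1*, *Irf9* and *Stat2* were also above the rest there, as were *Irf2*, *Irf5* and *Socs1* by smaller factors. Expressed as a share of the distance from the mean of the other control vehicle libraries to the mean of the other control TNFα libraries, this library lay at 9.52% (*Irf5*) to 29.5% (*Irf9*) for the 7 members that TNFα raised. Over 477 genes called with a log2 rise of at least 2 in Notch2tm1.1Ecan cells, its median position was 15.4%. Replicate 4 of control cells with TNFα lay below its group, at 74.4% (*Irf7*) to 85.8% (*Irf2*) of the distance for the same members and at a median of 81.6%. The labels name nothing else that sets these 2 libraries apart, and the control log2 changes below are therefore also given without these libraries.

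**Figure D1:**
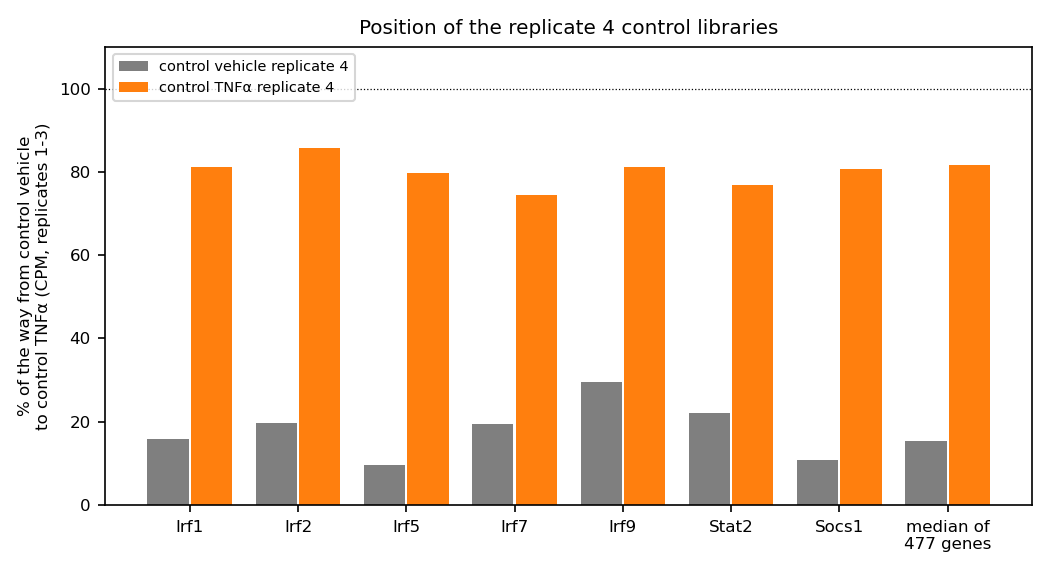
Position of the replicate 4 control libraries for the 7 members that TNFα raised and for the median of 477 genes; the vertical axis is the percentage of the distance from control vehicle to control TNFα, measured as CPM means of replicates 1 to 3. Gray bars (vehicle) lie between 9.52% and 29.5% and orange bars (TNFα) between 74.4% and 85.8%. Both libraries thus lie off the means of replicates 1 to 3 of their groups, and the spread within a group is not shown.

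TNFα raised 7 of the 9 members in control cells and the same 7 in Notch2tm1.1Ecan cells (edgeR quasi-likelihood test, adjusted p under 0.05). They were *Irf1*, *Irf2*, *Irf5*, *Irf7*, *Irf9*, *Stat2* and *Socs1*, and none was lower. *Irf3* and *Irf8* did not pass the test in either genotype. For the 7, the TNFα and vehicle libraries did not overlap in either genotype, against 41.8% of all genes tested in control and 40.3% in Notch2tm1.1Ecan cells. Of all genes tested, 44.2% were called in control cells (23.3% higher) and 44.5% in Notch2tm1.1Ecan cells (22.6% higher), so the count of members alone says little. A log2 rise of at least 1 was shared by all 7 members in both genotypes and was seen in 8.47% and 9.2% of all genes. The members were chosen with earlier results of these data known, so this contrast is a description and not a test. The same 7 were called in control cells when both replicate 4 control libraries were left out (24.6% of all genes higher, 9.47% by a log2 of at least 1). The median log2 change over the 9 members was 2.00 in control cells, 2.49 without those libraries, and 2.16 in Notch2tm1.1Ecan cells, beside medians over all genes of 0.039, 0.037 and 0.026. With the same treatment 11 of 14 chondrocyte markers were lower in each genotype (medians of -0.43 in control and -0.71 in Notch2tm1.1Ecan cells), and 6 of 17 macrophage markers were higher in control and 10 of 18 in Notch2tm1.1Ecan cells, with 1 lower in each. Their part in the responses of the members was not tested.

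**Figure D2:**
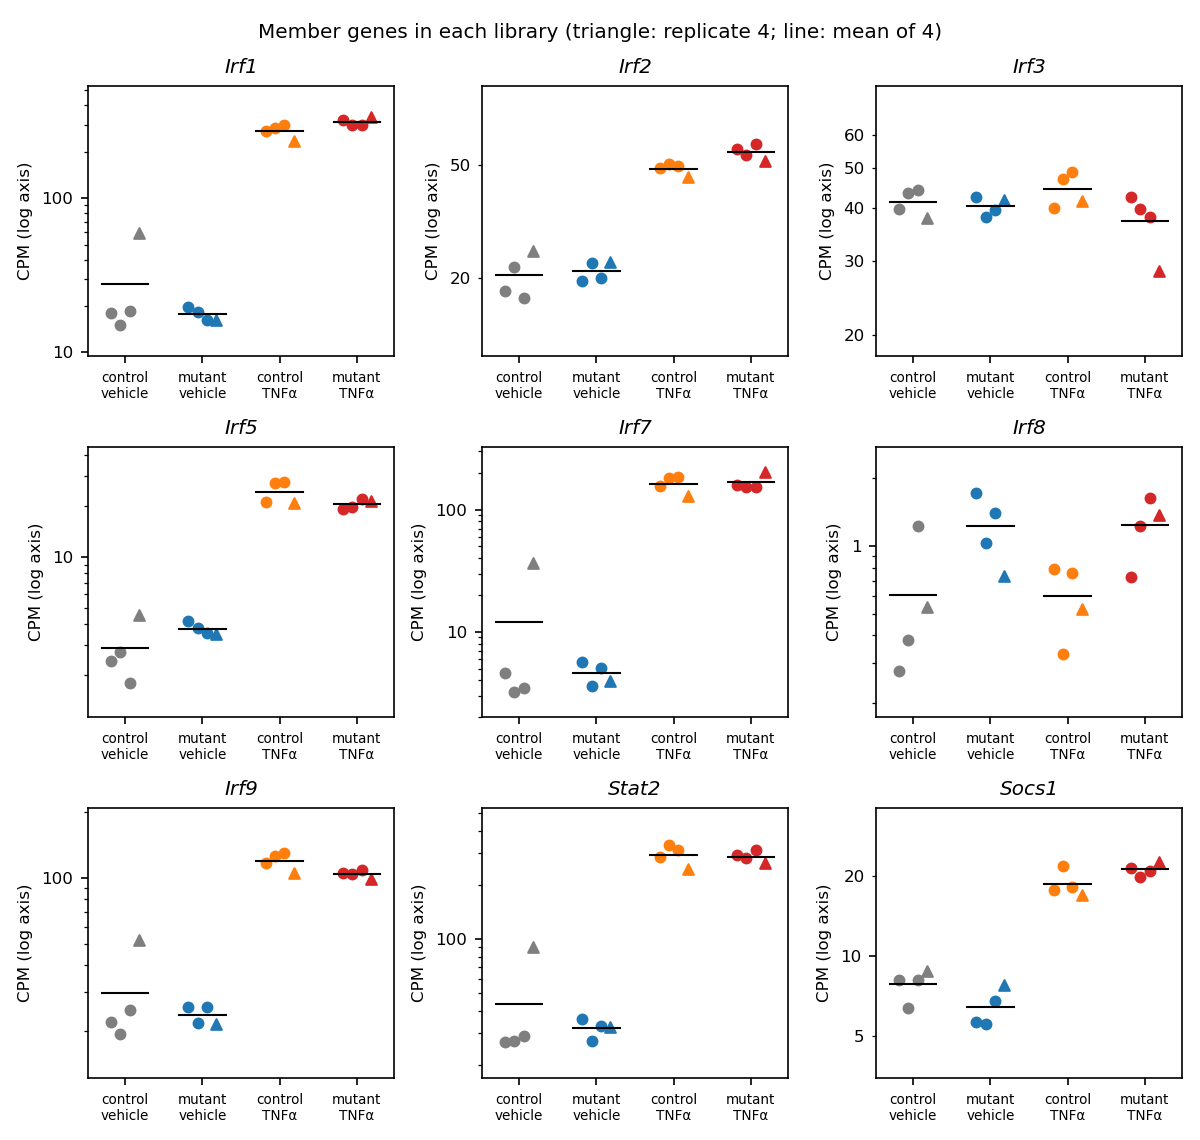
CPM of each member on a logarithmic axis in the 16 libraries, one point per library, with replicate 4 of each group as a triangle and the mean of 4 as a line. The 7 responding genes separate by treatment without overlap. For all 7 the control vehicle triangle is the highest of its group, by most for *Irf1*, *Irf7*, *Irf9* and *Stat2*.

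*Irf7*, which amplifies type I interferon production once it has been induced, had the largest fold rise of the 9 members in Notch2tm1.1Ecan cells and in control cells. With vehicle it stood at 4.59, 3.20, 3.48 and 36.8 CPM in control replicates 1 to 4 and at 5.72, 3.59, 5.08 and 3.94 CPM in Notch2tm1.1Ecan cells. With TNFα it stood at 155, 180.7, 185.7 and 130.2 CPM in control and at 159.5, 152.6, 153.6 and 203.3 CPM in Notch2tm1.1Ecan cells. Every TNFα library was above every vehicle library, the outlying one included. The log2 fold change was 3.73 ± 0.83 (SE, n = 4 against 4, adjusted p = 0.0113) in control cells, 5.51 ± 0.10 (n = 3 against 3, adjusted p = 5.14e-18) without both replicate 4 libraries, and 5.22 ± 0.13 (adjusted p = 5.42e-14) in Notch2tm1.1Ecan cells. The control vehicle replicate 4 library largely set the control value, a 13.3-fold rise with it and a 42.8-fold rise without it alone. Without both replicate 4 libraries the rise was 45.7-fold. The gene lies at chr7:140842619-140846398 on the minus strand of GRCm39 (GENCODE M39), and its exons were counted.

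*Irf1* (chr11:53660812-53669200, plus strand), whose product activates interferon-stimulated genes directly, rose next. It measured 18.1, 15.1, 18.6 and 59.9 CPM in control cells with vehicle and 19.8, 18.2, 16.2 and 16.3 CPM in Notch2tm1.1Ecan cells. TNFα brought it to 271.9, 284.9, 298.5 and 235 CPM in control cells and to 323.4, 296.7, 297.8 and 333.6 CPM in Notch2tm1.1Ecan cells. The highest vehicle library was far below the lowest TNFα library. The log2 change was 3.28 ± 0.51 in control cells (adjusted p = 0.00222) and 4.04 ± 0.061 without both replicate 4 libraries (adjusted p = 8.25e-28). In Notch2tm1.1Ecan cells it was 4.16 ± 0.077 (adjusted p = 5.18e-25), a 17.9-fold rise.

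Its counterpart *Irf2* (chr8:47192222-47300501, plus strand) rose by much less. The vehicle libraries held 17.96, 21.78, 16.92 and 24.9 CPM in control and 19.43, 22.48, 19.97 and 22.76 CPM in Notch2tm1.1Ecan cells. The TNFα libraries held 48.8, 50.3, 49.6 and 45.2 CPM in control and 56.9, 54.2, 59.4 and 51.6 CPM in Notch2tm1.1Ecan cells. Both genotypes therefore separated by treatment, and with TNFα every Notch2tm1.1Ecan library also exceeded every control library. The log2 change was 1.26 ± 0.11 in control cells (adjusted p = 7.18e-07; 1.41 ± 0.080 without both replicate 4 libraries) and 1.40 ± 0.077 in Notch2tm1.1Ecan cells (adjusted p = 1.47e-14). Per kilobase of exon, *Irf1* exceeded *Irf2* by 1.65 to 2.63 times in control cells with vehicle (5.74 times in replicate 4) and by 1.71 to 2.43 times in Notch2tm1.1Ecan cells. With TNFα the ratio was 12.4 to 14.4 in control and 12.0 to 15.4 in Notch2tm1.1Ecan cells. The excess with vehicle rests on the exon lengths used, 4678 bp for *Irf1* and 11179 bp for *Irf2*, which can exceed the transcripts made. Before scaling by length, the vehicle CPM of these genes overlapped in both genotypes.

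The ISGF3 subunits *Stat2* and *Irf9* both rose with TNFα. *Stat2* (chr10:128106352-128128735, plus strand) read 26.9, 27.2, 29.1 and 90.5 CPM in control cells with vehicle and 36.1, 27.2, 33.0 and 32.4 CPM in Notch2tm1.1Ecan cells. With TNFα it read 285.7, 334.7, 313.9 and 245.9 CPM in control and 293.1, 281.9, 311.1 and 264 CPM in Notch2tm1.1Ecan cells. The treatments did not overlap, and the outlying control vehicle library lay between them. The log2 change of *Stat2* was 2.76 ± 0.49 in control cells (adjusted p = 0.00406), 3.50 ± 0.059 without both replicate 4 libraries (adjusted p = 9.31e-26) and 3.17 ± 0.078 in Notch2tm1.1Ecan cells (adjusted p = 5.06e-22).

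*Irf9* (chr14:55841028-55847812, plus strand), the DNA-binding subunit of the complex, read 22.05, 19.42, 25.03 and 52.3 CPM in control cells with vehicle and 25.7, 21.8, 25.7 and 21.6 CPM in Notch2tm1.1Ecan cells. With TNFα it read 116.5, 125.9, 130.6 and 105.2 CPM in control and 105.8, 104.7, 109.3 and 98.5 CPM in Notch2tm1.1Ecan cells. Again no vehicle library reached a TNFα library. Its log2 change was 2.00 ± 0.34 (adjusted p = 0.00336) in control cells, 2.49 ± 0.069 (adjusted p = 1.14e-20) without both replicate 4 libraries, and 2.16 ± 0.075 (adjusted p = 4.93e-19) in Notch2tm1.1Ecan cells. Per kilobase, *Stat2* exceeded *Irf9* by 1.07 to 1.29 times in control cells with vehicle, leaving out replicate 4 (1.59 times), and by 1.15 to 1.38 times in Notch2tm1.1Ecan cells. TNFα left ratios of 2.15 to 2.45 in control and 2.47 to 2.62 in Notch2tm1.1Ecan cells, so the RNAs of these subunits did not rise in step.

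*Irf5* (chr6:29526276-29541870, plus strand), a factor activated below Toll-like receptors, was scarce without TNFα. It stood at 2.43, 2.74, 1.80 and 4.52 CPM (28 to 76 counts) in control cells with vehicle and at 4.20, 3.797, 3.53 and 3.50 CPM in Notch2tm1.1Ecan cells. With TNFα it reached 21.1, 27.3, 27.9 and 20.8 CPM in control and 19.07, 19.71, 21.99 and 21.52 CPM in Notch2tm1.1Ecan cells. The treatments were separated in both genotypes. The log2 rise was 3.07 ± 0.23 in control cells (adjusted p = 5.53e-06), 3.47 ± 0.15 without both replicate 4 libraries (adjusted p = 3.33e-17), and 2.46 ± 0.11 in Notch2tm1.1Ecan cells (adjusted p = 3.0e-16).

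*Socs1* (chr16:10600104-10603875, minus strand), the feedback inhibitor, measured 8.12, 6.40, 8.11 and 8.81 CPM in control cells with vehicle and 5.65, 5.54, 6.80 and 7.80 CPM in Notch2tm1.1Ecan cells. TNFα took it to 17.7, 21.9, 18.2 and 17.0 CPM and to 21.4, 19.9, 21.0 and 22.6 CPM. In the outlying control library it was the highest of its group by a small margin in CPM, at 10.8% of the distance to the TNFα libraries. The log2 change was 1.25 ± 0.11 in control cells (adjusted p = 8.43e-09; 1.36 ± 0.12 without both replicate 4 libraries) and 1.67 ± 0.11 in Notch2tm1.1Ecan cells (adjusted p = 1.11e-12).

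*Irf3* (chr7:44647033-44652272, plus strand), the factor that is present before infection and needs no induction, showed no detectable response. Its levels ran from 37.9 to 44.3 CPM in control cells with vehicle, from 38.2 to 42.5 CPM in Notch2tm1.1Ecan cells with vehicle, from 40.2 to 49.0 CPM in control cells with TNFα and from 28.4 to 42.6 CPM in Notch2tm1.1Ecan cells with TNFα. All 4 groups overlapped, and the lowest value came from the shallowest library. The log2 change with TNFα was 0.11 ± 0.070 in control cells (adjusted p = 0.198; 0.11 ± 0.071 without both replicate 4 libraries) and -0.076 ± 0.084 in Notch2tm1.1Ecan cells (adjusted p = 0.505).

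*Irf8* (chr8:121463096-121485659, plus strand) was close to the limit of detection, with 5 to 32 counts in a library. It measured 0.276, 0.381, 1.22 and 0.536 CPM in control and 1.72, 1.03, 1.40 and 0.736 CPM in Notch2tm1.1Ecan cells with vehicle. With TNFα it measured 0.788, 0.329, 0.758 and 0.523 CPM in control and 0.728, 1.23, 1.64 and 1.38 CPM in Notch2tm1.1Ecan cells. Treatment groups overlapped in both genotypes. The log2 change with TNFα was -0.026 ± 0.47 (adjusted p = 0.971; -0.024 ± 0.54 without both replicate 4 libraries) in control and 0.088 ± 0.33 (adjusted p = 0.864) in Notch2tm1.1Ecan cells, and errors of this size leave room for sizeable changes in either direction.

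**Figure D3:**
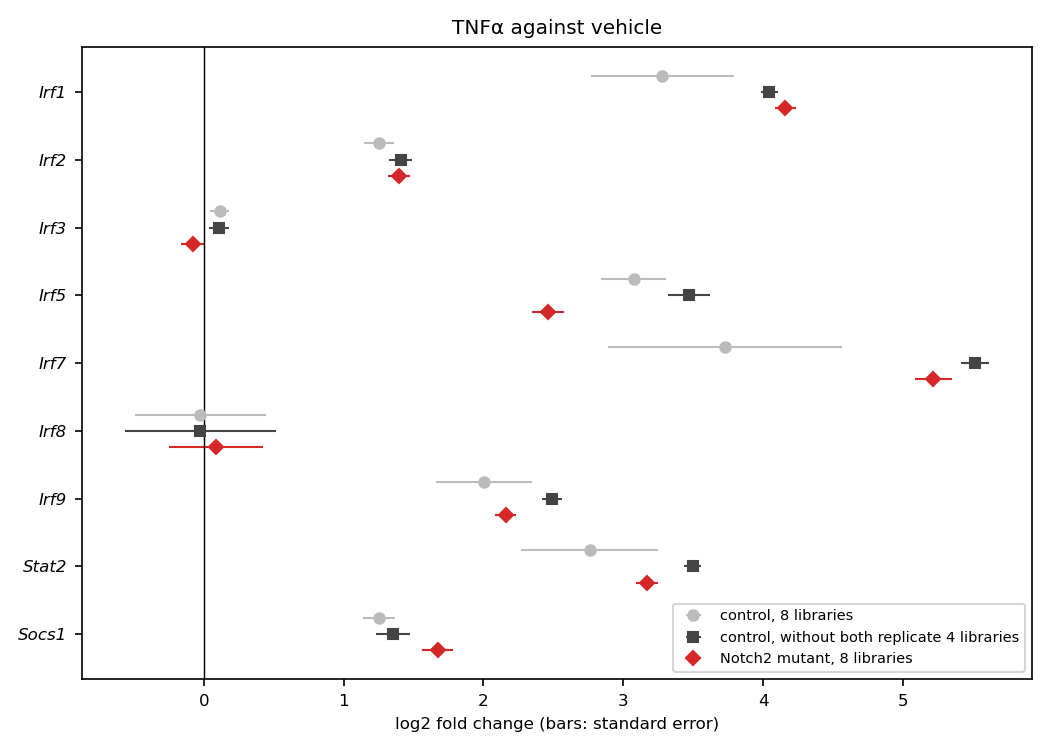
Log2 fold change with TNFα for each member, with its standard error, in control cells (gray, 8 libraries), in control cells without both replicate 4 libraries (black squares) and in Notch2tm1.1Ecan cells (red diamonds). The wide gray bars of *Irf7* (3.73 ± 0.83), *Irf1* (3.28 ± 0.51) and *Stat2* (2.76 ± 0.49) shrink in black, and *Irf3* and *Irf8* lie at zero.

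The order of levels changed with treatment. Per kilobase of exon and with vehicle (control replicate 4 left out), *Irf3* was highest at 12.2 ± 0.69 CPM per kb in control (SD, n = 3) and 11.6 ± 0.57 in Notch2tm1.1Ecan cells (SD, n = 4). It did not overlap *Stat2*, the next gene in either genotype, at 4.40 ± 0.19 and 5.10 ± 0.58 CPM per kb. *Irf9* and *Irf1* followed, and *Stat2*, *Irf9* and *Irf1* each overlapped the next of the 3, as did *Socs1* and *Irf2* further down. *Irf7* (0.993 ± 0.19 and 1.21 ± 0.26 CPM per kb), *Irf5* and *Irf8* closed the order in both genotypes, each separate from the gene above it. With TNFα, *Irf1* led at 58.3 ± 5.8 in control and 66.9 ± 4.0 CPM per kb in Notch2tm1.1Ecan cells (SD, n = 4), ahead of *Stat2* at 46.8 ± 6.1 and 45.6 ± 3.1. *Irf7* followed *Stat2* at 43.1 ± 6.8 and 44.2 ± 6.4 CPM per kb and overlapped it, and *Irf1* overlapped *Stat2* in control cells only. Without control replicate 4, *Irf1* at 60.9 ± 2.8 and *Stat2* at 49.4 ± 3.9 CPM per kb (SD, n = 3) no longer overlapped, while *Irf7* at 46.0 ± 4.4 still overlapped *Stat2*. *Irf3* came after *Irf9* and ahead of *Socs1*, *Irf2*, *Irf5* and *Irf8*, with no overlap between neighbours from *Irf9* down. Lengths are those of all annotated exons of a gene, which can exceed the transcripts made.

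Some members share bases with other annotated genes, and the strand setting of the counting is not stated in the sources used here. *Irf9* shares 282 bp with *Rnf31* on the same strand. *Irf5* shares 1047 bp with *Tnpo3*, *Irf3* 1104 bp with *Bcl2l12* and *Irf1* its whole span with the noncoding gene *Gm12216*, all on the opposite strand, so without strand their reads could not be told apart.

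Without TNFα, no member differed between Notch2tm1.1Ecan and control cells past the threshold (0 of 9, edgeR quasi-likelihood test, against 10.5% of all genes tested). One member had an unadjusted p under 0.05, and DESeq2 also called 0, with 1 member left without an adjusted p. The log2 differences ran from -1.42 ± 0.94 for *Irf7* to 0.96 ± 0.41 for *Irf8*. Most of that spread came from control replicate 4. Without it, *Irf7* differed by 0.24 ± 0.19, *Irf1* by 0.012 ± 0.098 in place of -0.67 ± 0.50, and *Stat2* by 0.21 ± 0.083 in place of -0.44 ± 0.47.

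*Irf5* was then the single member called, at 0.68 ± 0.19 (1.604-fold higher in Notch2tm1.1Ecan cells, adjusted p = 0.0237, against 5.78% of all genes higher). Its 4 Notch2tm1.1Ecan libraries, at 3.50 to 4.20 CPM, all lay above the other 3 control libraries, at 1.80 to 2.74 CPM, a separation seen for 21.5% of all genes. The control library left out, at 4.52 CPM, lay above all 4 Notch2tm1.1Ecan libraries. With it the groups overlapped, at a difference of 0.38 ± 0.22 (edgeR quasi-likelihood test, adjusted p = 0.344). Leaving out 1 more library in turn kept the call in 4 of 7 fits, with differences from 0.53 to 0.80 and adjusted p from 0.0159 to 0.165. The macrophage markers, given above, were higher in the same cells (14 of 18 called higher, against 6.19% of all genes, and 15 of 18 without control replicate 4). So were 4 of 7 endothelial markers, with or without that library (median log2 differences of 1.13 and 1.19). The chondrocyte markers were lower (14 of 14, against 4.35% of all genes, and 13 of 14 without it). The part of these markers in the *Irf5* difference was not tested.

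With TNFα, the single member called between genotypes was *Irf2*, at 0.22 ± 0.066 (1.16-fold higher in Notch2tm1.1Ecan cells, adjusted p = 0.0339, against 5.63% of all genes higher). Its groups did not overlap, which held for 14.8% of all genes. *Irf1* differed by 0.21 ± 0.070 (adjusted p = 0.0587), *Irf9* by -0.18 ± 0.066 (adjusted p = 0.0988) and *Irf5* by -0.24 ± 0.10 (adjusted p = 0.147), while *Irf7* (0.036 ± 0.14) and *Stat2* (-0.022 ± 0.076) were close to zero. The *Irf2* call was lost in 7 of 8 fits that left out 1 library. Without control TNFα replicate 4, *Irf2* differed by 0.17 ± 0.068 (adjusted p = 0.118), and *Irf9* at -0.25 ± 0.060 (adjusted p = 0.00545) and *Irf5* at -0.33 ± 0.099 (adjusted p = 0.0271) were called lower in its place (2 of 9, against 5.18% of all genes lower).

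*Irf8* had the largest upward genotype difference of the 9 in both treatments without passing the test. It was 0.96 ± 0.41 with vehicle (adjusted p = 0.161; 0.88 ± 0.45 without control replicate 4) and 1.06 ± 0.39 with TNFα (adjusted p = 0.0862). With 1 library left out in turn, the difference ran from 0.69 to 1.56 with vehicle (adjusted p from 0.0225 to 0.376) and from 0.83 to 1.28 with TNFα (adjusted p from 0.0475 to 0.321). The vehicle value of 1.56 came without control replicate 3 (1.22 CPM), and the TNFα value of 1.28 without Notch2tm1.1Ecan replicate 1 (0.728 CPM). The macrophage markers moved the same way as *Irf8* between genotypes (14 of 18 called higher with vehicle and 14 of 17 with TNFα, with medians of 1.14 and 1.23 on the log2 scale). The endothelial markers did too (4 of 7 and 3 of 7 called higher, with medians of 1.13 and 0.93). The part of either list in the values of *Irf8* was not tested. In both treatments the lymphoid, dendritic and neutrophil markers stayed at or below 1.46 CPM in sum.

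**Figure D4:**
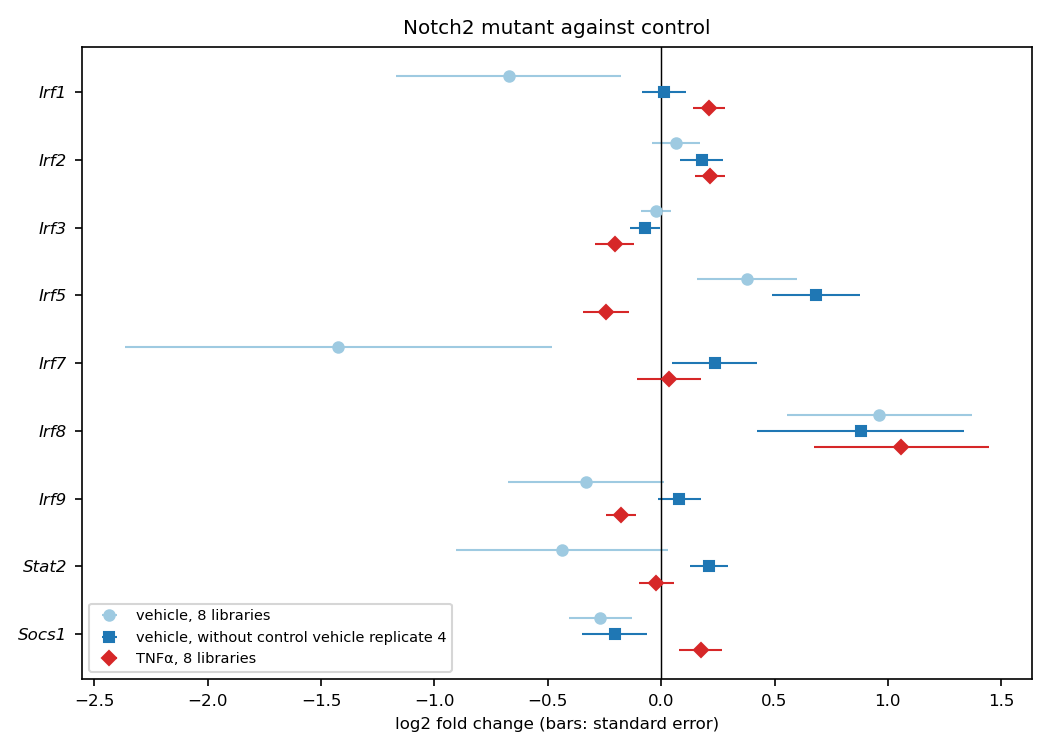
Log2 difference between Notch2tm1.1Ecan and control cells for each member, with its standard error, with vehicle (light blue, 8 libraries; dark blue squares, without control vehicle replicate 4) and with TNFα (red diamonds). *Irf7* moves from -1.42 to 0.24 when that library is left out, *Irf5* lies above zero with vehicle and at -0.24 with TNFα, and *Irf8* lies near 1 throughout.

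Whether the response to TNFα differed between genotypes was tested as an interaction over all 16 libraries. No member passed (0 of 9, edgeR quasi-likelihood test, against 0.474% of all genes), 2 members had an unadjusted p under 0.05, and DESeq2 called 0 with 2 members left without an adjusted p. The 2 members with an unadjusted p under 0.05 in the edgeR quasi-likelihood test were *Irf5* and *Socs1*. The rise of *Irf5* was smaller in Notch2tm1.1Ecan cells by a log2 difference of -0.61 ± 0.23 (adjusted p = 0.384). That of *Socs1* was larger by 0.43 ± 0.16 (adjusted p = 0.363). The value for *Irf7* was 1.49 ± 0.85 and for *Irf1* 0.88 ± 0.48.

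Leaving out both replicate 4 control libraries turned *Irf7* to -0.29 ± 0.25 and brought *Irf1* to 0.12 ± 0.10. *Irf5* then stood at -0.9995 ± 0.21 (adjusted p = 0.00767) and was the 1 member called (0.277% of all genes were called with a smaller rise). Without only the vehicle library of that pair it stood at -0.95 ± 0.21 (adjusted p = 0.0175). For *Irf5*, replicate 4 was the highest control library with vehicle (4.52 CPM) and the lowest with TNFα (20.8 CPM). Fits without both of these libraries cannot test the choice to leave them out. When 1 further library was left out in turn, the call held in 13 of 14 fits, with differences from -1.13 to -0.85, and was lost without control vehicle replicate 3 (adjusted p = 0.0855). That library held the fewest *Irf5* counts, 28. *Irf9* at -0.32 ± 0.11 (adjusted p = 0.238) and *Stat2* at -0.32 ± 0.10 (adjusted p = 0.215) did not pass.

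The interferons themselves were hardly detected. Of 21 interferon genes listed, 19 had 0 counts in all 16 libraries, among them *Ifng*, and 3 counts is the floor taken for a count of 0. *Ifnb1*, coding for interferon β, had 1 count in all over the 4 control vehicle libraries (in replicate 4) and 0 over the 4 Notch2tm1.1Ecan vehicle libraries, and 14 and 6 counts with TNFα. Of the 14, 7 were in control replicate 4, and the other control libraries with TNFα held 2 to 3 each. *Ifnb1* was called higher with TNFα in control cells (edgeR quasi-likelihood test, adjusted p = 0.0209). It had too few counts to be tested there without both replicate 4 libraries or in Notch2tm1.1Ecan cells. *Ifnz*, coding for interferon ζ, had 7 and 5 counts with vehicle and 13 and 4 counts with TNFα in control and Notch2tm1.1Ecan cells, and was not called in control cells (adjusted p = 0.484; 0.79 without both replicate 4 libraries). At these depths the interferon RNAs were at the edge of detection at 6 h, and interferon protein was not measured.

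All 30 interferon-stimulated genes listed were higher with TNFα in Notch2tm1.1Ecan cells, with a median log2 change of 5.73, and 29 of 30 were higher in control cells (median 4.17; 30 of 30 and 6.48 without both replicate 4 libraries). *Cxcl10*, a chemokine that attracts T cells, was the 1 gene not past the test in control cells. It ran from 0.381 to 0.884 CPM in 3 control vehicle libraries, reached 231 CPM in replicate 4, and ran from 1326 to 1693 CPM with TNFα, with a log2 change of 4.68 (adjusted p = 0.112) and of 11.08 ± 0.12 (adjusted p = 1.52e-13) without both replicate 4 libraries. *Mx1*, which blocks influenza virus replication, had 0 counts in the 4 Notch2tm1.1Ecan vehicle libraries and 27.6 to 44.2 CPM with TNFα, at least 267-fold higher when each vehicle library is set to a floor of 3 counts. The list median was the same with *Mx1* at that bound. *Rsad2*, coding for viperin, rose by 7.31 ± 0.15 in Notch2tm1.1Ecan cells and *Gbp2*, a guanylate-binding protein, by 7.22 ± 0.080. With TNFα, 8 of the 30 were lower and 1 higher in Notch2tm1.1Ecan than in control cells, against 4.31% and 5.63% of all genes, the largest being *Oas3* at -0.52 ± 0.12 (adjusted p = 0.00491), *Rsad2* at -0.50 ± 0.083 (adjusted p = 0.000281) and *Cmpk2* at -0.46 ± 0.075 (adjusted p = 7.32e-05). Without control TNFα replicate 4, 12 were lower and 1 higher. These differences are small beside the responses themselves.

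Among 10 receptor and Janus kinase genes, 8 were higher and 1 lower with TNFα in each genotype, against 23.3% and 20.9% of all genes in control and 22.6% and 21.9% in Notch2tm1.1Ecan cells. *Tyk2*, the kinase paired with the type I interferon receptor, rose by 2.19 ± 0.17 in control (2.41 ± 0.060 without both replicate 4 libraries) and 2.18 ± 0.067 in Notch2tm1.1Ecan cells, and *Ifngr2*, a chain of the interferon γ receptor, by 1.88 ± 0.18 (2.102 ± 0.055) and 1.89 ± 0.065. *Jak1* was the lower one, by small amounts (-0.21 in control, with or without those libraries, and -0.23 in Notch2tm1.1Ecan cells). *Jak2*, which serves the interferon γ receptor, measured 36.9 to 48.2 CPM in control and 35.1 to 41.5 CPM in Notch2tm1.1Ecan cells with vehicle, and 78.8 to 83.7 and 105.7 to 111.7 CPM with TNFα. Its vehicle groups overlapped and its TNFα groups did not. Its rise was larger in Notch2tm1.1Ecan cells by an interaction of 0.51 ± 0.096 (adjusted p = 0.00542; 0.42 ± 0.091 and adjusted p = 0.0153 without both replicate 4 control libraries). Of 8 other IRF and STAT genes tested, *Stat3* was the 1 called for interaction, at 0.33 ± 0.080 (adjusted p = 0.0413; 0.35 ± 0.080 and adjusted p = 0.0209 without those libraries), with 204 to 218.6 CPM falling to 182.3 to 191.5 CPM in control cells and 189.5 to 204.8 CPM against 205.3 to 236.2 CPM in Notch2tm1.1Ecan cells. *Stat5a* rose by 0.65 ± 0.070, *Stat6* by 0.49 ± 0.059 and *Irf2bp2*, coding for a protein that binds IRF2, by 0.30 ± 0.069 in Notch2tm1.1Ecan cells. In all, 4 of the 8 rose and 1 fell in control cells, and 4 of 8 rose in Notch2tm1.1Ecan cells. These 5 and 4 of 8 called stand beside 44.2% and 44.5% of all genes. Without both replicate 4 libraries 4 rose and 2 fell in control cells.

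Inhibitors of JAK-STAT signalling did not move as one. In control cells 5 of 16 were higher and 5 lower, and in Notch2tm1.1Ecan cells 4 were higher and 8 lower. Of all genes, 23.3% were higher and 20.9% lower in control and 22.6% and 21.9% in Notch2tm1.1Ecan cells. The share of inhibitors that rose was thus near that of all genes. The share that fell was larger than that of all genes, mainly in Notch2tm1.1Ecan cells. Without both replicate 4 libraries, 5 of 16 were higher and 6 lower in control cells. *Usp18*, which blocks the type I interferon receptor and is itself interferon-stimulated, rose by 4.96 ± 0.15 in Notch2tm1.1Ecan cells and by 3.69 in control cells (5.57 ± 0.11 without both replicate 4 libraries). *Ptpn6*, a phosphatase found mostly in blood cells, rose by 1.21 ± 0.22 in Notch2tm1.1Ecan cells. In contrast to *Socs1*, *Socs3* fell from 30.5 to 38.2 CPM to 10.2 to 16.1 CPM in control and from 31.6 to 37.0 CPM to 9.93 to 15.4 CPM in Notch2tm1.1Ecan cells (log2 changes of -1.40 ± 0.11 and -1.18 ± 0.096, and of -1.58 ± 0.095 in control without both replicate 4 libraries). *Socs2* also fell, by 1.30 on the log2 scale in control and by 1.86 in Notch2tm1.1Ecan cells (a log2 change of -1.62 in control without both replicate 4 libraries). *Socs1*, *Socs2* and *Socs3* thus split between a rise and falls in both genotypes. The list holds further SOCS genes, which are not described here.

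Most of the sensors, adaptors and kinases that act upstream of IRF proteins were higher. With TNFα, 13 of 21 tested rose and 2 fell in control cells, and 14 of 22 rose and 1 fell in Notch2tm1.1Ecan cells, against 23.3% and 22.6% of all genes higher. Without both replicate 4 libraries, 15 of 21 rose and 2 fell in control cells. Among the cytoplasmic RNA sensors, *Dhx58* rose by 4.51 ± 0.099, *Ifih1* by 3.79 ± 0.076 and *Rigi* by 3.02 ± 0.068 on the log2 scale in Notch2tm1.1Ecan cells. *Tlr3*, the endosomal sensor of double-stranded RNA, rose by 3.17 ± 0.10 and *Ikbke*, a kinase of IRF3 and IRF7, by 2.90 ± 0.076.

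**Figure D5:**
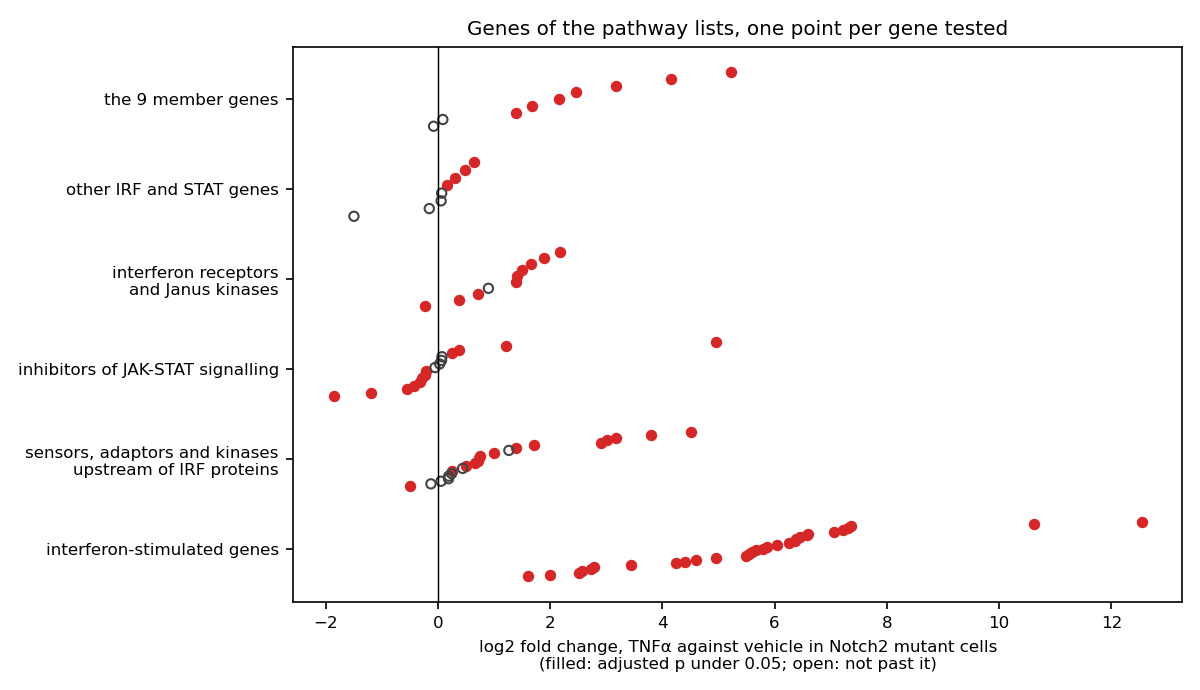
Log2 fold change with TNFα in Notch2tm1.1Ecan cells for the 9 members and the genes of 5 pathway lists, one point per gene tested, filled where the adjusted p was under 0.05. All 30 interferon-stimulated genes lie to the right, inhibitors lie on both sides of zero, and the rightmost point, *Mx1*, had 0 counts with vehicle, so its fitted position depends on the prior count.

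The genes whose profiles over the 16 libraries were closest to each responding member were found by the root mean square difference of centred log2 CPM, over 13431 genes. For *Irf1* the nearest was *Nfkbia* (0.113), coding for the NF-κB inhibitor IκBα, with 31.6 and 327.9 CPM on average in control and 23.2 and 363.6 CPM in Notch2tm1.1Ecan cells without and with TNFα, followed by *Cx3cl1* (0.145), coding for fractalkine. *Igtp* (0.168) and *Rtp4* (0.204) were nearest to *Irf7*, *Eif2ak2* (0.156), coding for the double-stranded RNA-dependent kinase PKR, and *Idnk* (0.161) to *Irf9*, and *Tapbp* (0.144), coding for tapasin, and *Parp12* (0.156) to *Stat2*. *Irf2* had *Agrn* (0.102) and *Rnf150* (0.108) as neighbours, and *Socs1* had *Ralgds* (0.097) and *Fbrsl1* (0.123). *Irf5* had no neighbour as near, with *AW011738* at 0.227 and *Gm11131* at 0.227. These profiles are dominated by the treatment and share libraries and depth.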

How the data were processed

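The 16 stranded mRNA libraries were sequenced in 1 pool. The values are raw counts per gene as deposited by the authors: per the study's methods reads were trimmed and aligned with HISAT2 to the mouse genome and counted with htseq-count. The submitters' processing notes name GRCm38 and HISAT2 2.1.0, and the study another build and version, so no coordinate was taken from the counts. Member coordinates are from GENCODE M39 (GRCm39) and promoter sequences from RefSeq (GRCm38.p6). The strand setting was not given in the sources used here. Rows naming no gene (8.81 to 12.1% of a library) were left out.

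The 9 members and all gene lists were chosen with earlier results of these data known. Genes with at least 10 counts summed over the compared libraries were tested with edgeR 4.0.16 (TMM scaling, robust quasi-likelihood F test, R 4.3.3), with Benjamini-Hochberg adjustment over all genes tested and a threshold of 0.05. Standard errors are the log2 fold change over the square root of F. The study introduced covariates in its DESeq2 analysis without naming them, and none was used here. Each comparison used its own 8 libraries, and the interaction all 16. Levels are TMM-scaled CPM, per kb where genes are compared. Counting error alone sets a floor of 3 counts per library. Replicates of a group differed by more than counting noise (chi-square per degree of freedom 2.14 to 16). Named were the 9 members, up to 5 called genes of each pathway list by size of change together with *Ifnb1*, *Ifng*, *Jak2*, *Socs3* and *Cxcl10*, and the 2 nearest genes of each responding member with a mean of at least 1 CPM (pseudocount 0.5). The list of other IRF and STAT genes was counted without 2 genes that are not reported here. Overlapping genes and *Cd163* were named after their values were seen. Alternatives were DESeq2 1.42.0, other scaling, filters and thresholds, a replicate block, all 16 libraries in 1 fit and left-out libraries. The scripts were tested on simulated data.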

Additional observations from a re-analysis of the deposited data

Results flagged for a closer look

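Of 36 sets of 4 libraries (9 members in 4 groups), 5 held a library further from the others than Dixon's criterion for 4 values allows, and chance alone gives about 1 in 20. Of the 5, 4 lay in replicate 4 of control cells with vehicle. *Irf7* stood at 36.84 CPM there against 3.20 to 4.59 CPM in the other 3 libraries, *Stat2* at 90.52 CPM against 26.9 to 29.1, *Irf1* at 59.87 CPM against 15.1 to 18.6, and *Irf9* at 52.31 CPM against 19.4 to 25.0. The fifth was *Irf7* in the shallowest library, replicate 4 of Notch2tm1.1Ecan cells with TNFα, at 203.3 CPM (737 counts) against 153 to 159 CPM.

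*Irf5* was marked because its TNFα response differed between genotypes once both replicate 4 control libraries were left out. The interaction was then -0.9995 on the log2 scale (adjusted p = 0.00767, edgeR quasi-likelihood test), and -0.61 (adjusted p = 0.384) with all 16 libraries. In Notch2tm1.1Ecan cells the level was higher with vehicle (3.50 to 4.20 CPM against 1.80 to 2.74 CPM in control replicates 1 to 3) and not with TNFα (19.07 to 21.99 CPM against 21.1 to 27.9 CPM). Control replicate 4 stood at 4.52 CPM with vehicle, above every Notch2tm1.1Ecan vehicle library, and at 20.8 CPM with TNFα. The macrophage markers were higher in Notch2tm1.1Ecan cells under both treatments, and their part in this was not tested.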

How the results depend on the processing

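The 7 members that rose with TNFα kept direction and call in both genotypes under DESeq2, other scaling and filters, the pooled fit of all 16 libraries, the fold limit and every left-out library. The exception was *Irf7* in control cells, which with the replicate number as a block stood at 4.38 (adjusted p = 0.0523). The labels do not say whether the numbers pair libraries. Deviations of same-numbered libraries correlated at -0.24 to 0.22, which does not settle it, since differently numbered ones were not compared. Under the block, the genotype call for *Irf2* with TNFα was also lost (adjusted p = 0.0913), and *Irf8*, never past the threshold there, turned to 0.054 and -0.031 for TNFα in control and Notch2tm1.1Ecan cells and to -0.0092 for the interaction. Between genotypes with TNFα, 1 member was called at first, and 0 with the block, with all 16 libraries in 1 fit or with a log2 change of at least 1. A minimum of 1 count gave 2 members and an adjusted p under 0.1 gave 4. That looser threshold also admits more of all genes, and their share is not given here. These counts therefore describe the settings and are no result about the members. The fold limit left 2279 and 2720 genes for TNFα in control and Notch2tm1.1Ecan cells, 244 and 272 between genotypes with vehicle and TNFα, and 10 for the interaction, in place of 8542, 8745, 2048, 1912 and 101. For the interaction DESeq2 called 206 genes and a minimum of 1 count 266. The cause was not tested. DESeq2 gave no adjusted p for *Irf7* and *Irf8* in the interaction or for *Irf7* between genotypes with vehicle.

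Leaving out both replicate 4 control libraries gave 1 member for the interaction (*Irf5*) and turned *Irf2* to -0.0063, *Irf7* to -0.29, *Irf9* to -0.32 and *Stat2* to -0.32. Between genotypes this amounts to leaving out 1 library, and the TNFα comparison in Notch2tm1.1Ecan cells does not hold them. With 1 library left out in turn, members called were 0 to 1 between genotypes with vehicle, 0 to 2 with TNFα and 0 to 1 for the interaction, where all genes called ranged from 51 to 156. Values that changed sign ranged as follows. For TNFα, *Irf8* ran from -0.30 to 0.56 in control and from -0.16 to 0.30 in Notch2tm1.1Ecan cells. Between genotypes with vehicle, *Irf1* ran from -0.87 to 0.012, *Irf2* from -0.014 to 0.18, *Irf3* from -0.069 to 0.014, *Irf7* from -1.73 to 0.24, *Irf9* from -0.48 to 0.080 and *Stat2* from -0.62 to 0.21. With TNFα, *Irf7* ran from -0.077 to 0.089 and *Stat2* from -0.11 to 0.034. For the interaction, *Irf7* ran from -0.21 to 1.79, *Irf8* from -0.48 to 0.37, *Irf9* from -0.28 to 0.30 and *Stat2* from -0.26 to 0.58. Fits that left out 2 or 3 libraries for *Irf5* were chosen after seeing the data. *Irf8* (5 to 32 counts a library) and the interferon genes rest on few counts.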
